A study of Homo sapiens with 4 samples.

Results

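Hedgehog signalling was examined through 9 genes, namely the receptor genes PTCH1 and SMO, the inhibitor genes HHIP and SUFU, the GLI transcription factor genes GLI1, GLI2 and GLI3, and the related zinc finger genes GLIS2 and GLIS3. All probe sets that the array's annotation assigns to one of these symbols and to no other gene were taken. They were 24 of the 54613 probe sets tested, and each of the 9 genes had at least 1. The cells were SW480, an established human colorectal adenocarcinoma line grown in medium with fetal bovine serum. By title, 2 arrays hold cells with a HOXA5 knock-down and 2 hold HOXA5 overexpressing cells, both transduced per the design text. HOXA5 is a homeobox transcription factor, and the labels do not state the constructs, the time after transduction, or whether the cells were pooled or cloned. No array of untransduced or vector-only cells was analysed here, so a difference between the groups cannot be assigned to one manipulation. All differences are overexpressing minus knock-down on the log2 scale.

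Hedgehog ligands are secreted proteins that bind PTCH1. PTCH1 without ligand holds the membrane protein SMO inactive, and active SMO releases GLI factors from their cytoplasmic inhibitor SUFU. GLI1 and GLI2 act mainly as activators, whereas GLI3 is processed to a repressor when the pathway is off, and GLI1, PTCH1 and HHIP are themselves targets of the pathway. GLIS2 and GLIS3 share the zinc finger type of the GLI proteins but are not established parts of the SMO cascade. In the intestine, hedgehog ligands come mainly from the epithelium and signal to the mesenchyme below it.

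The values were log2 expression per probe set, made by the authors with RMA, which carries no call of presence or absence. Medians of the arrays lay between 5.77 and 5.81, and arrays of 1 group correlated at 0.997 over all probe sets against 0.991 to 0.993 between groups. The annotation used here assigned none of the probe sets to HOXA5, and the manipulated gene was not checked against the labels here. Among 12 colorectal epithelial markers, the keratins KRT8 and KRT18 were near the top of the scale on every array, from 12.84 to 13.03 and from 13.79 to 13.86. EPCAM, an epithelial adhesion molecule, went from 3.81 and 3.65 in knock-down cells to 8.80 and 8.75 in overexpressing cells (limma adjusted p = 5.44e-05). CDX2, an intestinal homeobox gene, went from 5.93 and 6.05 to 6.46 and 6.53 (adjusted p = 0.06), and CDH1, encoding E-cadherin, from 5.08 and 4.91 to 5.44 and 5.74 (adjusted p = 0.10). The marker list was chosen with earlier results of these data known. On the brightest probe set of each gene, 7 of the 12 differences were above 0 and 5 below, KRT8 (-0.11) and KRT18 (-0.04) among the 5. On these probe sets, 2 of the 12 markers passed an adjusted p of 0.05, both higher, or 16.7% against 2.86% over all genes. They were EPCAM and KRT19, a keratin that went from 4.74 and 4.65 to 9.08 and 9.08 (limma adjusted p = 5.44e-05). The weaker KRT19 probe set differed by 0.04, with overlapping groups. Weaker probe sets of VIL1, encoding the brush border protein villin, passed at 0.78 and 0.85, while its brightest differed by 0.02. The log2 of the summed level of the 12 markers was 14.52 to 14.53 against 14.49 to 14.56. That sum was of unlogged levels and mostly KRT8 and KRT18, so it could hardly show changes such as those of EPCAM and KRT19. In limma, none of 8 fibroblast, 6 endothelial and 7 leukocyte markers passed on that probe set (1, 0 and 0 at an unadjusted p under 0.05). Their log2 summed levels in knock-down and overexpressing arrays were 9.99 to 10.05 and 10.06 to 10.10 for fibroblast genes, 8.69 to 8.72 and 8.69 to 8.79 for endothelial genes, and 8.14 to 8.19 and 8.02 to 8.15 for leukocyte genes. The fibroblast sum likewise rested mostly on its brightest gene. A weaker probe set of the fibroblast gene LUM passed, going from 2.48 and 2.66 to 4.82 and 4.65. The part of these marker differences in the results below was not tested.

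Promoter sequence is shown for the receptor gene that is also a target of the pathway and for the gene with the largest difference. RefSeq windows of the 250 bases before a transcription start were held for 6 of the 9 genes (all but GLI1, GLI3 and GLIS2), 12 windows in all, on build GRCh38.p14. Each was searched on both strands for GACCACCCA, the GLI consensus, TAATTA, a homeodomain core, and CTTTGAT, a TCF core, motifs that do not contain one another. The GLI consensus was found once, in the second of the 5 PTCH1 windows, on the opposite strand at 172 to 164 bases before the start. Among 35116 windows of this length, 0.199% held it. Neither other motif was found in the 12 windows, against 4.35% of all windows for TAATTA and 2.26% for CTTTGAT. The PTCH1 window lies at chr9:95509267-95509516 and the most upstream of the 2 GLIS3 windows at chr9:4298497-4298746, both on the minus strand and written 5′ to 3′, with the GLI consensus match in capitals. Their GC content was 57.2% and 57.6%, against a median of 58.0% over all windows.
PTCH1: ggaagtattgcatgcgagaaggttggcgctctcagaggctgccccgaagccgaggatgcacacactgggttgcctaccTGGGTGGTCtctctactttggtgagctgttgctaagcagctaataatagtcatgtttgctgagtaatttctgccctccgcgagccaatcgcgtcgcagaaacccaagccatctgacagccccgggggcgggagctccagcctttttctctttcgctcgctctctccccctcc
GLIS3: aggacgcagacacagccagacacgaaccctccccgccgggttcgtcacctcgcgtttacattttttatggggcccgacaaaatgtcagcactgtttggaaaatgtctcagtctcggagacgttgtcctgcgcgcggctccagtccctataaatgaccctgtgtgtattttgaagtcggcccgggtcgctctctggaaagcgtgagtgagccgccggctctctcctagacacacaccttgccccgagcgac

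Between the groups, GLI3 was higher and GLIS3 lower in the overexpressing arrays, PTCH1 was higher on its brightest probe set, and the values of GLI1, SMO and HHIP overlapped between the groups on every probe set. In bulk RNA, a lower level per cell and fewer expressing cells cannot be told apart. Each probe set was tested with limma over all 54613 probe sets, with Benjamini-Hochberg adjustment, and one at an adjusted p under 0.05 is called. Of the 24 probe sets, 3 rose and 1 fell, or 16.7%, against 1.97% of all probe sets (1.36% higher and 0.613% lower). The genes had been chosen with earlier results of these data known, so this count describes them and is no evidence that Hedgehog genes stand apart. The values of the groups did not overlap for 11 of the 24 (45.8%), close to the 43.1% among all probe sets. The median of the 24 differences was 0.092, and that of all probe sets -0.015. The median absolute difference was 0.196 against 0.096. With 2 arrays in each group, the smallest p of an exact two-sided permutation test of 1 probe set is 0.333, so each call rests on the spread shared across probe sets. The labels do not say whether replicates were separate cultures, so that spread may be technical.

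**Figure D1:**
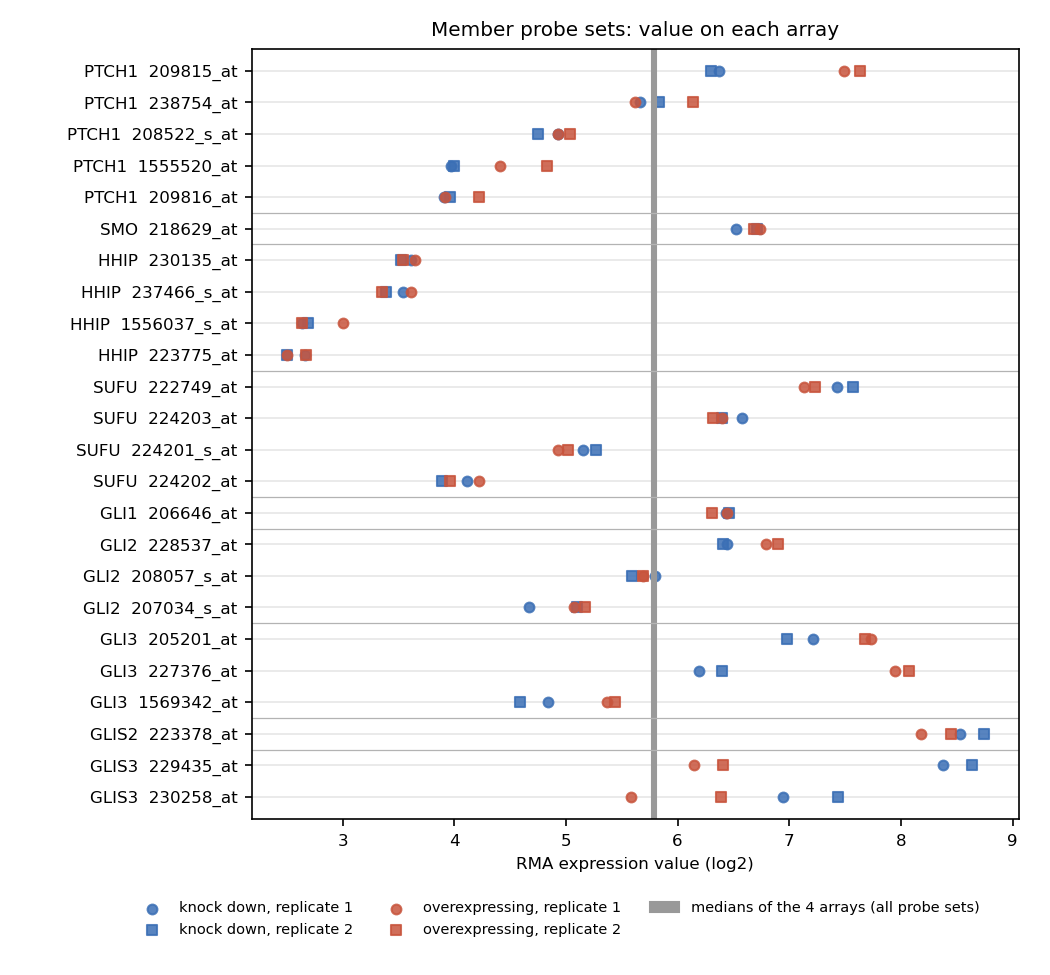
RMA expression value (log2, horizontal axis) of each of the 24 probe sets on the 4 arrays, blue for knock-down and red for overexpressing, circles for replicate 1 and squares for replicate 2, with a grey band for the array medians. The red points stand to the right of the blue ones on all 3 GLI3 probe sets and to the left on both GLIS3 probe sets, while the 4 HHIP probe sets lie at the low end, from 2.50 to 3.65.

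PTCH1, the receptor for the ligands, had 5 probe sets, and they did not give the same result. On the brightest, 209815_at, the knock-down arrays were at 6.37 and 6.30 and the overexpressing arrays at 7.49 and 7.63. Both overexpressing arrays were thus above both knock-down arrays, by more than the distance between replicates. The difference of 1.23 ± 0.09 (SE, n = 2 per group) is 2.34-fold, with a limma adjusted p of 0.00289. The dim probe set 1555520_at read 3.97 and 4.0 against 4.41 and 4.83. These groups also did not overlap, but the difference of 0.63 ± 0.15 (SE) was not called (limma adjusted p = 0.121). The remaining 3 probe sets, 238754_at, 208522_s_at and 209816_at, differed by 0.14, 0.15 and 0.14 with overlapping groups, and their adjusted p-values were 0.588 to 0.819. All 5 differences were above 0, and the mean of the 5 probe sets differed by 0.46, which missed the threshold when tested over genes (limma adjusted p = 0.0662). The regions of the transcript that the probe sets read, and the difference between probe sets, were not tested.

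SMO, the membrane protein that passes the signal on, had 1 probe set, 218629_at. It read 6.52 and 6.71 in knock-down arrays and 6.74 and 6.68 in overexpressing arrays, so the groups overlapped. The difference was 0.10 with a 95% interval of -0.14 to 0.33 (limma adjusted p = 0.747). RMA gives no detection call at this level, so whether SW480 cells express SMO was not tested.

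Among the inhibitors, HHIP, a surface protein that binds the ligands away from PTCH1, was low throughout. Its brightest probe set, 230135_at, read 3.61 and 3.52 in knock-down arrays and 3.65 and 3.54 in overexpressing arrays, and all 4 of its probe sets stood in the lowest 16.4% of every array. Their differences were 0.00 to 0.16, every pair of groups overlapped, and the 95% intervals reached from -0.27 to 0.48 at most. Values this low cannot be told from background here, since RMA gives no detection call, so whether SW480 cells express HHIP was not tested.

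SUFU, which holds GLI proteins in the cytoplasm, read slightly lower in the overexpressing arrays on 3 of its 4 probe sets, but none was called in limma (2 at an unadjusted p under 0.05). On 222749_at, its brightest, the knock-down arrays were at 7.43 and 7.57 and the overexpressing arrays at 7.13 and 7.23. The groups did not overlap, and the difference was -0.32 ± 0.09 (SE, limma adjusted p = 0.203). Probe set 224201_s_at gave 5.15 and 5.27 against 4.93 and 5.02, again without overlap (-0.23, adjusted p = 0.319). The other two differed by -0.13 and 0.09, with overlapping groups.

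**Figure D2:**
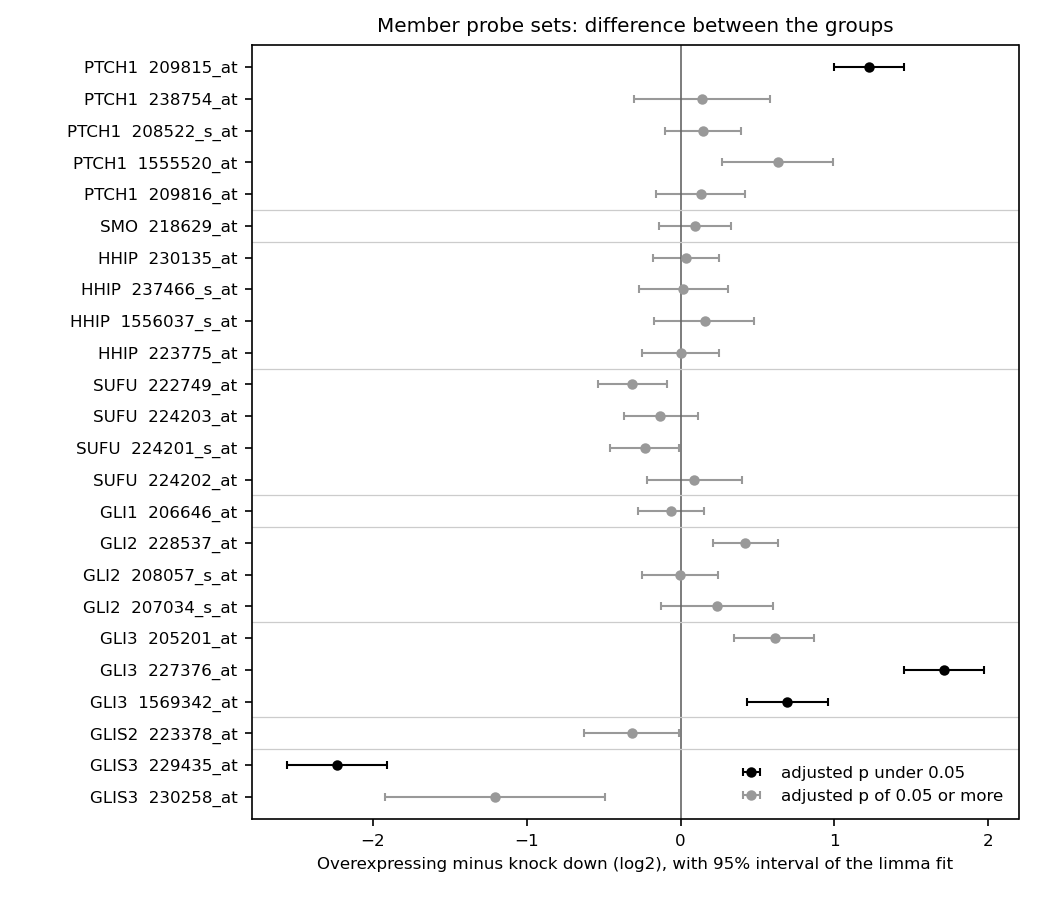
Difference between the groups for each probe set (overexpressing minus knock-down, log2, horizontal axis), with the 95% interval of the limma fit, black where the adjusted p is under 0.05 and grey otherwise. The 4 black points are PTCH1 209815_at at 1.23, GLI3 227376_at at 1.71, GLI3 1569342_at at 0.69 and GLIS3 229435_at at -2.23.

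GLI3, the GLI factor with the main repressor form, was higher on each of its 3 probe sets. Probe set 227376_at read 6.19 and 6.40 in knock-down cells, against 7.95 and 8.07 in overexpressing cells. It rose 3.28-fold, a difference of 1.71 ± 0.11 (SE, n = 2 per group), the largest rise among the 24 probe sets (limma adjusted p = 0.00157). The dimmer 1569342_at went from 4.84 and 4.59 to 5.37 and 5.44, a rise of 0.69 ± 0.11 (SE) as measured (limma adjusted p = 0.0424). All of its values lay below the array medians and carry no detection call, so no fold is given. The brightest probe set, 205201_at, read 7.21 and 6.98 against 7.73 and 7.68, a difference of 0.61 ± 0.10 (SE) or 1.53-fold. It lay just outside the threshold (limma adjusted p = 0.055) and inside it when 1 probe set per gene was tested over genes (0.0241). No probe set of GLI3 had overlapping groups, and the mean of the 3 rose by 1.01 (limma adjusted p = 6.37e-04 over genes). With the replicate number as a block, 227376_at passed (limma adjusted p = 0.0185), and 1569342_at (0.13) and 205201_at (0.111) did not.

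GLI2, the main activator downstream of SMO, had 3 probe sets, none called in limma (1 at an unadjusted p under 0.05). On 228537_at the knock-down arrays were at 6.44 and 6.41 and the overexpressing arrays at 6.79 and 6.90. That is a difference of 0.42 ± 0.09 (SE) without overlap, at a limma adjusted p of 0.0894. It passed in the test over genes with 1 probe set each (limma adjusted p = 0.0405) and missed the threshold as the mean of its probe sets (0.16). Probe set 208057_s_at gave 5.80 and 5.59 against 5.69 and 5.69, with no difference between the means (0.00, 95% interval -0.25 to 0.24). The remaining one, 207034_s_at, differed by 0.23, with 1 knock-down array at 4.67 and the other 3 arrays at 5.07 to 5.17.

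GLI1, whose own transcription is a usual readout of the pathway, had 1 probe set, 206646_at. It read 6.43 and 6.46 with the knock-down against 6.44 and 6.31 with overexpression. The overexpressing arrays lay within and below the knock-down range, with a difference of -0.06 and a 95% interval of -0.28 to 0.15 (limma adjusted p = 0.83). Of the 3 pathway targets among the 9 genes, PTCH1 was therefore called on 1 of 5 probe sets and GLI1 and HHIP on none of 1 and 4 (0 at an unadjusted p under 0.05 in limma). RMA gives no detection call for GLI1 either. On the 4 arrays, medians of the listed markers were 6.08 to 6.19 (endothelial), 5.36 to 5.52 (fibroblast) and 4.93 to 5.22 (leukocyte). Single endothelial and leukocyte markers read as high as GLI1, and whether SW480 cells express GLI1 was not tested.

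GLIS3, a zinc finger factor known for its role in pancreatic beta cells and the thyroid, had the largest difference of the 9 genes. On 229435_at the knock-down arrays were at 8.38 and 8.64 and the overexpressing arrays at 6.15 and 6.41. The groups were separated by far more than the distance between replicates, and the level was 4.70-fold lower in the overexpressing arrays. It fell by 2.23 ± 0.13 on the log2 scale (SE, n = 2 per group, limma adjusted p = 0.00137). The second probe set, 230258_at, read 6.94 and 7.44 against 5.58 and 6.39, also without overlap. Its replicates lay further apart, and the difference of -1.21 ± 0.29 (SE) was not called (limma adjusted p = 0.133). The mean of both fell by 1.72 (limma adjusted p = 0.00455 over genes).

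GLIS2, its relative, a mainly repressive zinc finger factor needed for kidney integrity, had 1 probe set, 223378_at, at 8.53 and 8.74 in knock-down cells and 8.18 and 8.45 in overexpressing cells. Both overexpressing arrays were lower, but by about the distance between replicates. The difference was -0.32 ± 0.13 (SE), with a limma adjusted p of 0.329. The remaining GLIS gene, GLIS1, was at 5.39 and 5.16 against 5.48 and 5.20 (0.07, adjusted p = 0.898).

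The calls on the 9 genes depended on having both arrays of each group. When any 1 array was left out, none of the 24 probe sets passed in limma (8 to 11 at an unadjusted p under 0.05), and over all probe sets only 15 to 61 did, against 1078 with all 4. The lone array of a group was then assumed to vary like the pair of the other group. The differences themselves stayed between 1.16 and 1.29 for PTCH1 209815_at, 1.61 and 1.82 for GLI3 227376_at, 0.57 and 0.82 for GLI3 1569342_at and -2.36 and -2.10 for GLIS3 229435_at. Adjusted p-values then were 0.0692 to 0.388 for these 4 probe sets.

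The profiles most like those of GLI3 and GLIS3 were sought over the 4 arrays, as the Euclidean distance between probe sets centred on their own means. Nearest to GLI3 227376_at were SPINT2 (distance 0.0727, difference 1.70), WFDC1 (0.104, 1.67) and IGFBP2 (0.104, 1.69). Nearest to GLIS3 229435_at were NIBAN1 (0.35, -1.92), FAR2 (0.389, -1.87) and CLU (0.437, -1.82).

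Other genes of the pathway were described by the brightest probe set of each gene, from lists made by role. The lists were chosen with earlier results of these data known. Their shares of calls describe them and are no evidence that pathway genes stand apart. Of 96 listed genes 88 were measured, of which 4 rose, 3 fell and 81 were not called, or 7.95% called against 2.86% over all genes (1.86% higher and 0.996% lower). Their median difference was 0.013, and that over all genes -0.019. Most calls were in the list of GLI targets.

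None of the 3 ligand genes was called in limma (1 at an unadjusted p under 0.05). SHH, the ligand gene best known from development, read 5.88 and 5.76 in knock-down arrays and 6.16 and 6.45 in overexpressing arrays, without overlap (0.48, limma adjusted p = 0.147), but its other probe set differed by 0.05. IHH, the main ligand of the adult colon, differed by 0.15 and DHH by -0.01. DISP1, a transporter that releases the lipid-modified ligand from the producing cell, went from 6.99 and 6.99 to 6.24 and 6.42. It fell by 0.66 ± 0.09 (SE, limma adjusted p = 0.0316; 0.0998 with the replicate number as a block) and was the sole call among 9 genes for ligands and their release. None of 7 co-receptors and ligand-binding surface proteins was called (1 at an unadjusted p under 0.05 in limma). GAS1, a membrane-anchored co-receptor, was at 9.13 and 9.12 against 9.25 and 9.23, and BOC at 6.80 and 6.70 against 6.86 and 6.96. Those are brightest probe sets. The weaker ones of GAS1 read only 4.48 to 5.02 and 5.78 to 6.03, and differed by -0.09 and -0.10.

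None of 35 cytoplasmic and ciliary regulators was called on its brightest probe set in limma (3 at an unadjusted p under 0.05), and their differences ran from -0.19 to 0.43 with a median of -0.021. CSNK1A1, a kinase that phosphorylates GLI proteins and SMO, differed by 0.02 (limma adjusted p = 0.986), and SAP18, a corepressor subunit that binds SUFU, by 0.002. The weaker SAP18 probe sets differed by 0.21 and 0.59 without overlap, and neither was called (limma adjusted p = 0.488 and 0.0612). Weaker probe sets of CSNK1A1 (0.57), the receptor kinase GRK3 (0.54) and the arrestin ARRB1 (0.63) passed, each higher. They were 1 of 13, 1 of 3 and 1 of 7 probe sets of these genes. That of GRK3 went from 3.33 and 3.32 to 3.79 and 3.94 (limma adjusted p = 0.0496). Values this low carry no detection call. None of 5 other zinc finger genes of the GLI, GLIS and ZIC group passed (0 at an unadjusted p under 0.05 in limma), with ZIC2 at 7.51 and 7.56 against 7.46 and 7.73 and ZIC1 differing by 0.09.

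**Figure D3:**
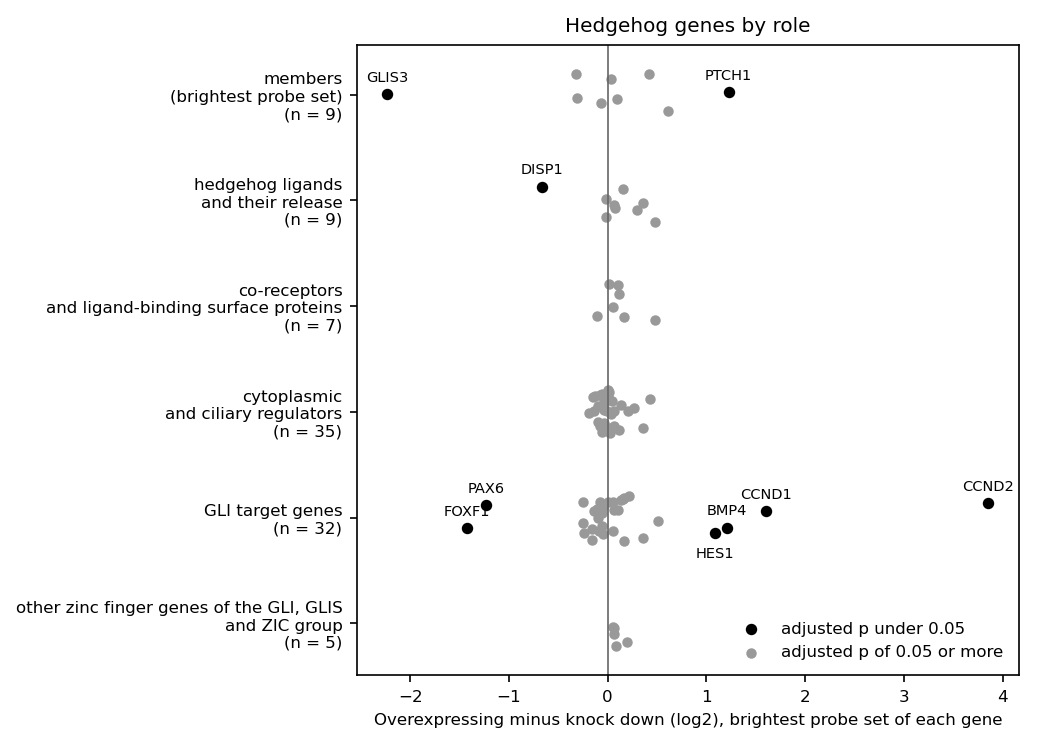
Difference between the groups (overexpressing minus knock-down, log2, horizontal axis) for the brightest probe set of each gene, by role, with called genes black and named and the other genes grey. The 9 genes described above span -2.23 to 1.23, the 35 cytoplasmic and ciliary regulators stay within -0.19 and 0.43, and the 6 black GLI targets lie on both sides of 0.

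Of 32 measured genes listed as GLI targets, 4 rose, 2 fell and 26 were not called, or 18.8% called against 2.86% over all genes (1.86% higher and 0.996% lower), and the median difference was -0.022. This list too was chosen with earlier results of these data known, so its share is no evidence that GLI targets stand apart. The changes of its genes went both ways. CCND2, encoding cyclin D2, read 4.15 and 4.73 in knock-down arrays and 8.24 and 8.35 in overexpressing arrays. It rose by 3.85 as measured (limma adjusted p = 7.74e-04), and of its other 3 probe sets 1 passed at 1.26. The knock-down values lay below the array medians and carry no detection call, so no fold is given. CCND1, encoding cyclin D1, went from 8.65 and 8.52 to 10.22 and 10.15 and rose 3.03-fold. FOXF1, a forkhead factor of gut mesenchyme downstream of hedgehog ligands, was at 8.88 and 8.90 against 7.44 and 7.49 and fell by 1.43. PAX6, a homeobox gene of eye and endocrine cells that hedgehog represses in the neural tube, went from 7.77 and 7.67 to 6.41 and 6.57 and fell by 1.23, and by 1.71 on its other probe set. BMP4 (1.21) and HES1 (1.09), which completed the rises, are named after their values were seen. Of the weaker HES1 probe sets, 203395_s_at was called at 0.86, and 203393_at differed by -0.01 with overlapping groups. CCND1, CCND2 and BMP4 are also Wnt targets, and HES1 is also a Notch target, so the list is not specific to GLI factors. When any 1 array was left out, the 7 calls among the pathway genes, DISP1 included, were lost in limma, except that of CCND2 without knock-down replicate 1 or without knock-down replicate 2 (adjusted p 0.0265 to 0.124 over the 4 arrays left out). The largest difference among the 26 uncalled targets was that of FST, at 0.51.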

How the data were processed

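Total RNA of 4 SW480 samples was labelled with biotin and hybridised to Affymetrix arrays, 1 per sample. The deposited values are log2 expression for 54675 probe sets; per the submitters' processing notes the authors used RMA from the affy package, with no version named. RMA corrects background, makes the arrays' distributions alike and summarises probes. Low values are compressed and carry no detection call. Arrays have no read depth, and their number limits the precision. After 62 control probe sets were left out, 41091 of 54613 had 1 gene symbol in the platform annotation, 1801 had several and 11721 had none listed.

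Overexpressing and knock-down arrays were compared per probe set with limma 3.58.1 (R 4.3.3), lmFit with the group alone and eBayes, tests two-sided, p-values adjusted by Benjamini-Hochberg over all 54613, and no filter. The procedure was checked on simulated data. A gene's brightest probe set is the one with the highest mean over the 4 arrays. Promoter windows came from RefSeq. Named genes were the 9 members, in each pathway list up to 4 called genes with the largest difference or else the 2 brightest, 5 epithelial markers, and 3 nearest profiles for the largest rise and fall. Outside that rule, and chosen after their values were seen, SHH, IHH, DHH, GLIS1, BMP4, HES1, FST and KRT19 are named, as are CSNK1A1, GRK3, ARRB1, LUM and VIL1 for weaker probe sets that passed. Members and lists were chosen with earlier results of these data known. Alternatives were other moderation, a replicate block, centring, renormalization, a filter on dim probe sets, summaries per gene, other thresholds and leaving out each array.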

Additional observations from a re-analysis of the deposited data

How the results depend on the processing

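Over all 54613 probe sets, 1078 were called in limma, but 2437 with an intensity trend and robust moderation, 443 with the replicate number as a block, and 386 and 1916 at thresholds of 0.01 and 0.1. Leaving out 1 array left 15 to 61. Of the 24 member probe sets, 4 were called (3 higher, 1 lower). With the intensity trend 7 were called (5 higher, 2 lower), GLI3 205201_at, GLI2 228537_at and GLIS3 230258_at being added. At a threshold of 0.1 there were 5 higher. As means of a gene's probe sets, 2 of 9 genes passed (GLI3 as the 1 higher, GLIS3 lower) and PTCH1 did not. Leaving out any array left 0 to 0 member probe sets called, higher or lower, and 0 to 1 of the 7 calls among the 88 pathway genes (0 to 1 higher, 0 to 0 lower). The cause was not tested, beyond the fewer arrays in the last case. The replicate block left 3 member probe sets, without GLI3 1569342_at, and 6 pathway genes, without DISP1. Replicates numbered 1 deviated from their group means with a correlation of 0.146 over probe sets, but the labels do not tie the numbers to a shared culture, so they were not taken as pairs. Centring, renormalization and the restriction to 1 symbol kept the counts of members and pathway genes within 1.5 times. The filter on dim probe sets kept 12 member probe sets and called 5 of them. The test of 1 probe set per gene called 3 higher and 1 lower of 9, where the main fit called 1 higher and 1 lower of the same 9. Both settings added GLI3 205201_at and GLI2 228537_at and left the calls among pathway genes at 7. Signs changed in 17 recomputed values of 9 member probe sets, none called and none over 0.125. The planned comparison of protein zinc fingers was not run.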
